A study of Solanum lycopersicum x Solanum pennellii and Solanum lycopersicum with 21 samples.

Results

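Wiv-1, LIN7 and HT3 are 3 tomato genes of sugar supply: Wiv-1 and LIN7 encode cell wall invertases, and HT3 encodes a hexose transporter. They were chosen by symbol in the array platform's annotation, with every probe set of each, and each had 1 probe set, so that 3 of the 10101 probe sets tested, and 3 of the 802 genes with a symbol, are described here. The annotation gives them the Entrez gene IDs 543502 (Wiv-1), 543713 (LIN7) and 543738 (HT3). Anthers collected 1 day before flower opening were profiled on 21 Affymetrix arrays. The groups were the domesticated tomato M82, labelled as the parental control (6 arrays), and the introgression lines IL-1_1_3 (3 arrays), IL-4_2, IL-7_2 and IL-8_1_1 (4 arrays each). The titles of the M82 samples read Pollen Control M82, and those of the lines do not name pollen. An introgression line carries a segment of the wild species Solanum pennellii in the genome of M82, and by convention the number after IL names the chromosome of the segment. All plants were grown in the same way in a greenhouse, with no treatment that set the groups apart. The series' design text calls the lines hybrids, and neither the copies of the segment nor plant age nor the plants behind each sample are stated. The labels do not tell whether arrays of a group are separate plants, so each p-value refers to array-to-array spread, which may be technical.

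Sucrose reaches the anther through the phloem, but pollen has no cell connections to the tissue around it. Cell wall invertases split sucrose into glucose and fructose outside the cell, and hexose transporters carry these sugars across the plasma membrane. Loss of cell wall invertase activity in anthers is known to cause pollen failure in several plants. Wiv-1 is known as a wound-inducible tomato invertase, and LIN7 as an invertase expressed in stamens and pollen. HT3 belongs with HT1 and HT2 to the tomato family of hexose transporters.

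The deposited values are log2 expression values, and levels of different probe sets are not set against each other here. Array medians lay between 9.47 and 9.54, and arrays of 1 group correlated with each other at 0.925 to 0.998. IL-7_2 array 2 and M82 array 3 stood at the same end of the main axis of variation within groups, which held 59.2% of that variance, and values without them are given for the results on Wiv-1, LIN7, HT3 and the HT1 transporter whose call changed. The pollen list held 6 genes: Shy, PRK1, PRK2, PRK3, LAT61 and Stig1, the last a gene of the stigma. None passed the test in any line against M82, where 1.44% to 2.84% of all probe sets were called. By sign, all 6 lay above M82 in each line but IL-7_2, where 5 lay below it. Of all 10101 probe sets, 4032 lay below M82 in IL-7_2, and 5191 to 5791 lay above it in the other lines. Whether pollen content was equal between groups was not tested. The mean of the 6 lay between 9.46 and 11.60 in all 21 arrays. The highest was IL-8_1_1 array 2, where Stig1 lay 3.46 above its group mean. In IL-8_1_1, Stig1 ran from 4.19 over a median of 4.27 to 8.86. Wiv-1 also had its highest value, 9.87, in that array. What the high Stig1 value reflects was not tested. No tapetum gene was found by the name patterns used.

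Wiv-1 rose in the anthers of IL-8_1_1 against M82, and it passed the test in none of the other lines. In M82 its lowest array stood at 7.16, the median at 7.56 and the highest at 8.15. The 4 IL-8_1_1 arrays held 9.73, 9.87, 8.73 and 9.67. All 4 lay above every one of the other 17 arrays of the study, the highest of which was 8.67. The group means were 9.50 ± 0.52 (SD, n = 4) and 7.61 ± 0.37 (SD, n = 6). The log2 difference was 1.89 ± 0.25 (SE, 95% interval 1.37 to 2.42), a 3.72-fold higher level (limma, adjusted p = 0.000104). An exact two-sided permutation test over the arrays gave p = 0.00476, the smallest that 210 splits can give. It was 1 of 12 such tests, over the 3 genes and the lines against M82, and these p-values are not adjusted. This p-value restates that all 4 arrays lay above M82 and is no separate evidence. Wiv-1 was the only member of the 3 called in this comparison, in which 1.44% of all probe sets were called, and 1.4% of all probe sets had every IL-8_1_1 array above every M82 array. In whole anthers, more cells of a type and more RNA per cell cannot be told apart.

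**Figure D1:**
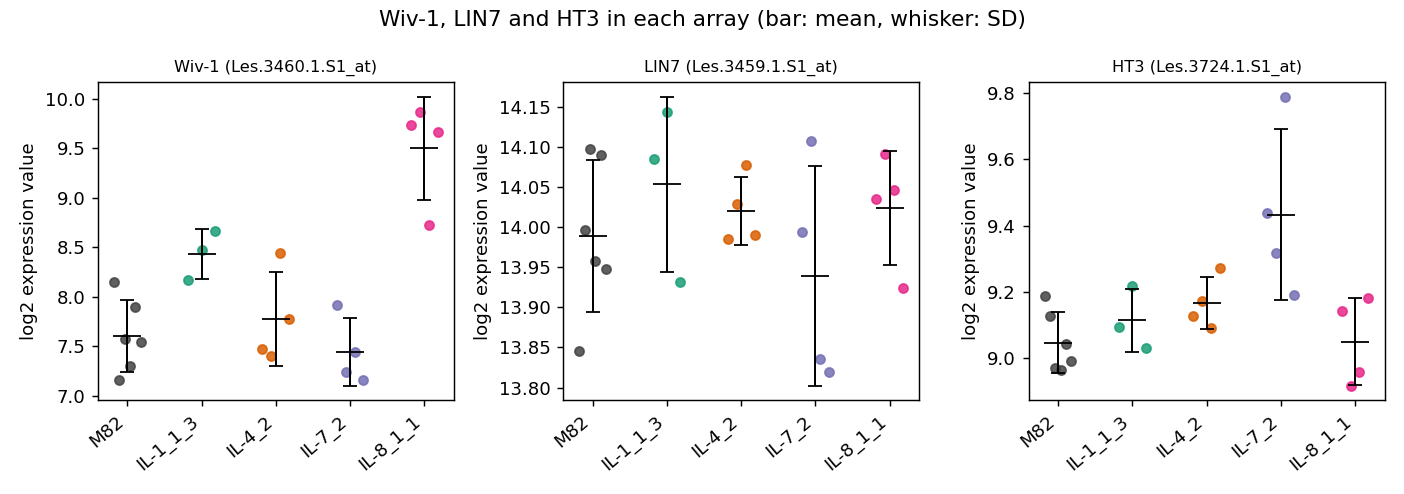
Log2 expression value (vertical axis) of Wiv-1, LIN7 and HT3 in each of the 21 arrays (points), by group (horizontal axis), with the group mean and SD as bars. The 4 IL-8_1_1 points of Wiv-1 lie from 8.73 to 9.87, above all other points, the LIN7 points span 13.82 to 14.14, and the IL-7_2 points of HT3 lie from 9.19 to 9.79.

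In IL-1_1_3 the 3 arrays held 8.17, 8.47 and 8.67 for Wiv-1. All 3 lay above the highest M82 array, the first of them by a small margin. Every IL-1_1_3 array stood above every M82 array for 7.46% of all probe sets. The mean was 8.44 ± 0.25 (SD, n = 3), and the difference from M82 was 0.83 ± 0.27 (SE, 95% interval 0.26 to 1.40), a 1.78-fold level. This difference did not pass the limma test over all probe sets (adjusted p = 0.106). The exact two-sided permutation test over arrays gave p = 0.0119, not adjusted over the 12 tests and the smallest that 84 splits can give. It restates that all 3 arrays lay above M82 and is no separate evidence. In this comparison 1.97% of all probe sets and 0 of the 3 genes were called.

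The remaining lines overlapped with M82 in Wiv-1. IL-4_2 held 7.47, 7.40, 8.44 and 7.78 (mean 7.77 ± 0.48, SD, n = 4), and the third array lay above all M82 arrays. IL-7_2 held 7.92, 7.24, 7.44 and 7.16 (mean 7.44 ± 0.34, SD, n = 4). The log2 differences from M82 were 0.17 (95% interval -0.35 to 0.69, adjusted p = 0.774, limma) in IL-4_2 and -0.16 (-0.68 to 0.36, adjusted p = 0.847) in IL-7_2.

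By group mean the order of Wiv-1 was IL-8_1_1, IL-1_1_3, IL-4_2, M82 and IL-7_2, and no pair of neighbours in this order differed past the test. Wiv-1 was lower in IL-4_2 than in IL-8_1_1 by a log2 difference of -1.72 ± 0.27 (SE, adjusted p = 0.000457, limma). In that comparison 1 of the 3 genes and 2.33% of all probe sets were called. It was also lower in IL-7_2 than in IL-8_1_1, by -2.06 ± 0.27 (SE, adjusted p = 6.14e-05), where 2 of the 3 genes and 4.46% of all probe sets were called. IL-1_1_3 stood -1.06 ± 0.29 (SE) from IL-8_1_1, which did not pass (adjusted p = 0.097, with 1.48% of all probe sets called). Without IL-8_1_1 array 3, its lowest array, this difference was -1.32 and passed (adjusted p = 0.0156). IL-1_1_3 stood 0.99 above IL-7_2 without passing (adjusted p = 0.0767, with 3.27% of all probe sets called). That call was made without IL-7_2 array 1 (1.15, adjusted p = 0.0417) or array 2 (0.93, adjusted p = 0.0474). Between IL-1_1_3 and IL-4_2, where 1.67% of all probe sets were called, Wiv-1 differed by 0.66 (adjusted p = 0.504), and 0 of the 3 genes were called.

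Because Wiv-1 is named for its response to wounding, 10 genes with symbols of wound and defence gene families were read beside it in IL-8_1_1. They were picked by name patterns that take in whole families, and whether each responds to wounding was not tested. Of these 10, 2 rose and 8 were not called, where 1.44% of all probe sets were called. By sign, 6 lay above M82 and 4 below, against 5191 and 4910 of all 10101 probe sets. The list's median log2 change was 0.18, against 0.01 over all probe sets. The gene cevi19, known as induced by a viroid, rose from 5.80 ± 0.43 (SD, n = 6) to 7.18 ± 0.37 (SD, n = 4), by 1.37 ± 0.25 (SE, adjusted p = 0.00356, limma). Its 4 IL-8_1_1 arrays, at 7.66, 6.77, 7.17 and 7.12, lay above the highest M82 array at 6.45. Every IL-8_1_1 array lay above every M82 array for 1.4% of all probe sets. LOX1.1, a lipoxygenase, rose by 0.70 ± 0.17 (SE, adjusted p = 0.0406) at a low level, from 4.87 to 5.58. The LOX1.1 call ended without any single one of the 6 M82 arrays, or without IL-8_1_1 array 2 or 3 (adjusted p up to 0.192), while cevi19 was called without each array in turn. The mean of the 10 genes lay between 7.91 and 8.08 in IL-8_1_1 and between 7.44 and 8.01 in M82. As deviations from group means over all 21 arrays, Wiv-1 and the mean of these genes gave r = 0.36 (n = 21, permutation p = 0.11, adjusted over 10 relations 0.248; rho = 0.33, permutation p = 0.139), which did not pass. Without IL-1_1_3 array 2 and IL-7_2 array 1, r was 0.30. The genes were not scaled for this mean, so widely varying ones weigh more in it. LOXB, a lipoxygenase among the 10, ran from 5.17 to 11.83 in M82 (SD 3.09, n = 6). None of the 10 was called against M82 in IL-1_1_3, IL-4_2 or IL-7_2, where 1.97%, 1.83% and 2.84% of all probe sets were called.

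**Figure D2:**
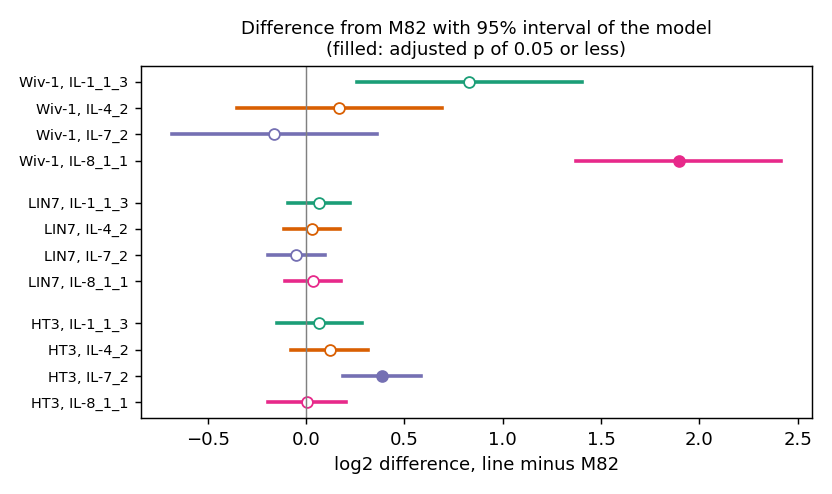
Log2 difference from M82 (horizontal axis) of Wiv-1, LIN7 and HT3 in each of the 4 lines, with 95% intervals from the model. The interval of Wiv-1 in IL-8_1_1 runs from 1.37 to 2.42 and that of HT3 in IL-7_2 from 0.19 to 0.58, while all 4 intervals of LIN7 include 0.

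LIN7 did not differ past the test between any pair of groups. In M82 its lowest array stood at 13.85, the median at 13.98 and the highest at 14.10 (mean 13.99 ± 0.10, SD, n = 6). IL-1_1_3 held 14.08, 14.14 and 13.93, and IL-4_2 held 13.98, 14.03, 14.08 and 13.99. IL-7_2 held 13.99, 14.11, 13.84 and 13.82, and IL-8_1_1 held 14.03, 14.09, 14.05 and 13.92. All groups overlapped. The order of the means was IL-1_1_3 (14.05), IL-8_1_1 and IL-4_2 (both 14.02), M82 and IL-7_2 (13.94).

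The intervals bound how far LIN7 could have moved on this scale. The differences from M82 were 0.06 (95% interval -0.09 to 0.22) in IL-1_1_3, 0.03 (-0.11 to 0.17) in IL-4_2, -0.05 (-0.19 to 0.09) in IL-7_2 and 0.03 (-0.11 to 0.18) in IL-8_1_1. The adjusted p-values (limma) were 0.62, 0.848, 0.823 and 0.883 in that order. LIN7 values lay near the top of the scale of the table, whose highest value was 14.69. Whether the array signal was compressed there was not tested. The SD of LIN7 within groups was 0.0955, against a median of 0.192 over all probe sets, 0.406 for Wiv-1 and 0.144 for HT3.

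The small variation of LIN7 between arrays ran with that of some of the pollen genes. By the correlation over all 21 arrays, the named genes most like LIN7 were PRK2 (r = 0.93), a pollen receptor-like kinase, Shy (r = 0.89), a gene of pollen tube growth known from petunia, and ca2 (r = 0.86). Within groups, as deviations from group means, the values were 0.92, 0.89 and 0.85. These genes were chosen for their likeness to LIN7, so their values are a description. The other pollen genes differed among themselves, with r within groups of 0.85 for PRK1, 0.59 for PRK3, 0.13 for Stig1 and -0.43 for LAT61. Against the mean of the 6 pollen genes, LIN7 deviations gave Pearson's r = 0.66 (n = 21, permutation p = 0.0012, adjusted over 10 relations 0.012) and Spearman's rho = 0.62 (permutation p = 0.00309, adjusted 0.0309). Without IL-7_2 array 2 and IL-8_1_1 array 2, the arrays farthest from the median, r was 0.56. The genes were not scaled for this mean, so widely varying ones weigh more in it. Over all arrays, PRK3 ran from 4.71 to 9.86 and Stig1 from 4.09 to 8.86. The permutations shuffled deviations over all 21 arrays without regard to group. Deviations from 5 group means hold 16 degrees of freedom, so the permutation p-values of relations may be too small.

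**Figure D3:**
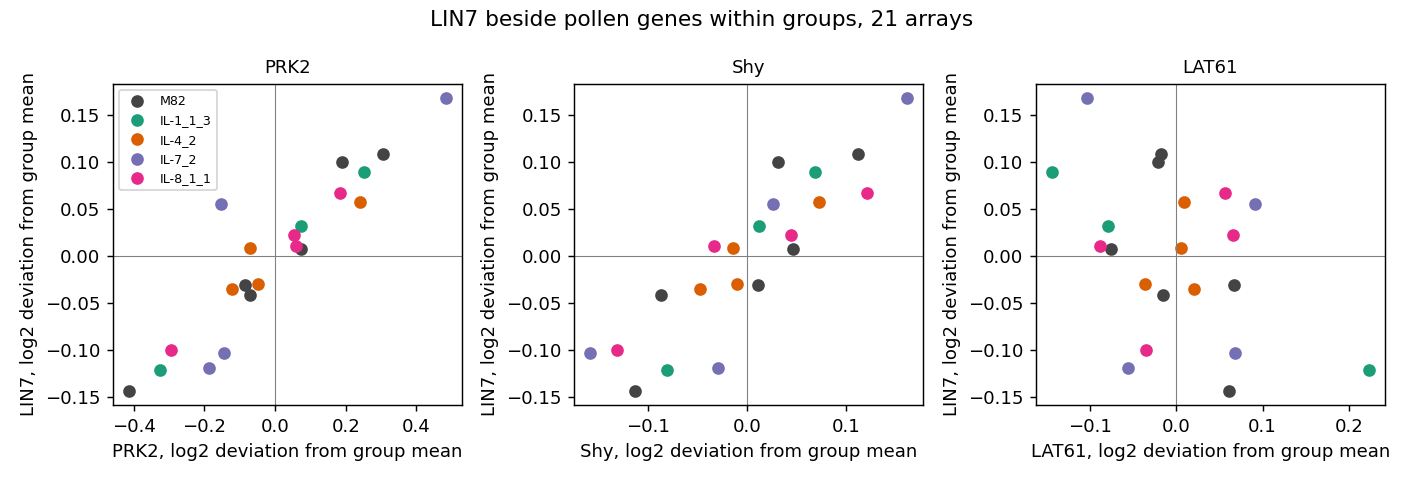
LIN7 (vertical axis) against the pollen genes PRK2, Shy and LAT61 (horizontal axis, 1 panel each), both as log2 deviations from the group mean, with 1 point for each of the 21 arrays coloured by group. LIN7 rises with PRK2 (r = 0.92) and Shy (r = 0.89) within groups, and not with LAT61 (r = -0.43).

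LIN7 also ran against the main axis of variation within groups (r = -0.58, n = 21, permutation p = 0.00603, adjusted 0.0301; rho = -0.47, permutation p = 0.0332, adjusted 0.126). Without IL-7_2 array 2 and M82 array 3, r was -0.32, so that this relation rests on those arrays. Its permutation p-values may likewise be too small, since the shuffling did not keep to the groups. In the IL-7_2 arrays, in order, the mean of the pollen genes was 9.99, 10.82, 9.46 and 9.52. Their axis scores were -8.3, -63.2, 38.5 and 33.1. Whether the relation of LIN7 to the pollen genes is separate from this axis was not tested. Against the same axis, Wiv-1 gave r = -0.26 (permutation p = 0.267) and HT3 gave r = 0.35 (permutation p = 0.124), both n = 21.

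The other cell wall invertases on the array, lin5 and LIN8, passed the test in no line against M82. The gene lin5 encodes an invertase known for its part in fruit sugar content. It stood at 12.46 ± 0.11 (SD, n = 6) in M82 and differed by 0.19, -0.14, 0.20 and 0.08 in IL-1_1_3, IL-4_2, IL-7_2 and IL-8_1_1, with adjusted p from 0.32 to 0.848 (limma). LIN8 was dim, at 5.63 ± 0.28 (SD, n = 6) in M82, and its largest difference was 0.47 in IL-8_1_1 (adjusted p = 0.843). The medians of the 4 cell wall invertases were 0.12, 0.10, -0.05 and 0.28 in the same order of lines, against 0.03, 0.03, 0.04 and 0.01 over all probe sets.

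CIF1, an inhibitor protein of cell wall invertase, was also read. Its M82 arrays lay between 10.41 and 10.87 with a median of 10.62. IL-8_1_1 held 10.93, 10.95, 11.11 and 10.92, all above M82, and the 3 IL-1_1_3 arrays (mean 11.18 ± 0.20, SD, n = 3) likewise lay above M82. Every array of the line lay above every M82 array for 1.4% of all probe sets in IL-8_1_1 and 7.46% in IL-1_1_3. CIF1 differed by 0.34 ± 0.18 (SE, adjusted p = 0.807, limma) in IL-8_1_1 and 0.55 ± 0.20 (SE, adjusted p = 0.143) in IL-1_1_3, and neither passed. In IL-7_2 the arrays spread from 10.34 to 11.76 and the difference was 0.44 (adjusted p = 0.281). Without IL-7_2 array 4, the lowest, it was 0.68 and passed (adjusted p = 0.0163). AI, an acid invertase listed by hand, stood at 13.01 in M82 and differed by 0.12 to 0.34 across the lines without passing.

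HT3 rose in IL-7_2 by a small amount. In M82 its lowest array stood at 8.96, the median at 9.02 and the highest at 9.19. IL-7_2 held 9.44, 9.32, 9.79 and 9.19. All 4 lay above every M82 array, the fourth by less than 0.01, and array 3 was the highest of the study. The means were 9.43 ± 0.26 (SD, n = 4) and 9.05 ± 0.09 (SD, n = 6), a log2 difference of 0.39 ± 0.09 (SE, 95% interval 0.19 to 0.58) or 1.31-fold (limma, adjusted p = 0.0296). The exact two-sided permutation test gave p = 0.00476, again the smallest possible and not adjusted over the 12 tests. It restates that all 4 arrays lay above M82 and is no separate evidence. In this comparison 1 of the 3 genes and 2.84% of all probe sets were called, and 2.55% of all probe sets had every IL-7_2 array above every M82 array.

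This call was close to the threshold. It ended without M82 array 3, 4, 5 or 6, or without IL-7_2 array 1 or 3 (adjusted p from 0.0559 to 0.0982), and without IL-7_2 array 3 the difference was 0.27. It also ended with cyclic loess normalization (0.31, adjusted p = 0.0907) and with IL-7_2 and M82 fitted alone (adjusted p = 0.231). Among 7 genes of green tissue, all 7 were below M82 in IL-7_2, with a median of -0.40 and 1 called fall, against 4032 of 10101 probe sets below M82, a median of 0.04 and 2.84% called over all probe sets. The called gene was PsbQ of photosystem II (-0.40, adjusted p = 0.0301, limma). The PsbQ call ended without M82 array 1, 2, 5 or 6 or IL-7_2 array 1 or 4 (adjusted p up to 0.124). The mean of the green genes was 10.67 in IL-7_2, with arrays from 10.44 to 10.79, and 11.01 in M82, with arrays from 10.66 to 11.35. In IL-1_1_3 all 7 green genes were likewise below M82 (median -0.41, 1 called fall). Over all probe sets there, 4589 of 10101 were below M82, with a median of 0.03 and 1.97% called. In IL-4_2 and in IL-8_1_1, 6 of 7 green genes were below M82, against 4310 and 4910 of 10101 probe sets. Their part in the HT3 result was not tested.

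In the other lines HT3 overlapped with M82. IL-1_1_3 held 9.09, 9.22 and 9.03, IL-4_2 held 9.13, 9.17, 9.09 and 9.27, and IL-8_1_1 held 9.14, 8.92, 8.96 and 9.18. The differences were 0.07 (95% interval -0.15 to 0.28, adjusted p = 0.717, limma), 0.12 (adjusted p = 0.629) and 0.00 (adjusted p = 0.995). In IL-4_2, 1.83% of all probe sets and 0 of the 3 genes were called. Between lines, HT3 was higher in IL-7_2 than in IL-8_1_1 by 0.38 ± 0.10 (SE, adjusted p = 0.0393). This call ended without IL-7_2 array 1 or 3 or IL-8_1_1 array 1, 2 or 3 (adjusted p up to 0.137) and with cyclic loess (0.29, adjusted p = 0.145). HT3 in IL-1_1_3 stood -0.32 from IL-7_2 without passing (adjusted p = 0.13, limma), and passed without IL-7_2 array 2 (-0.36, adjusted p = 0.0412). The order of the means was IL-7_2, IL-4_2, IL-1_1_3, IL-8_1_1 and M82, and no pair of neighbours differed past the test.

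**Figure D4:**
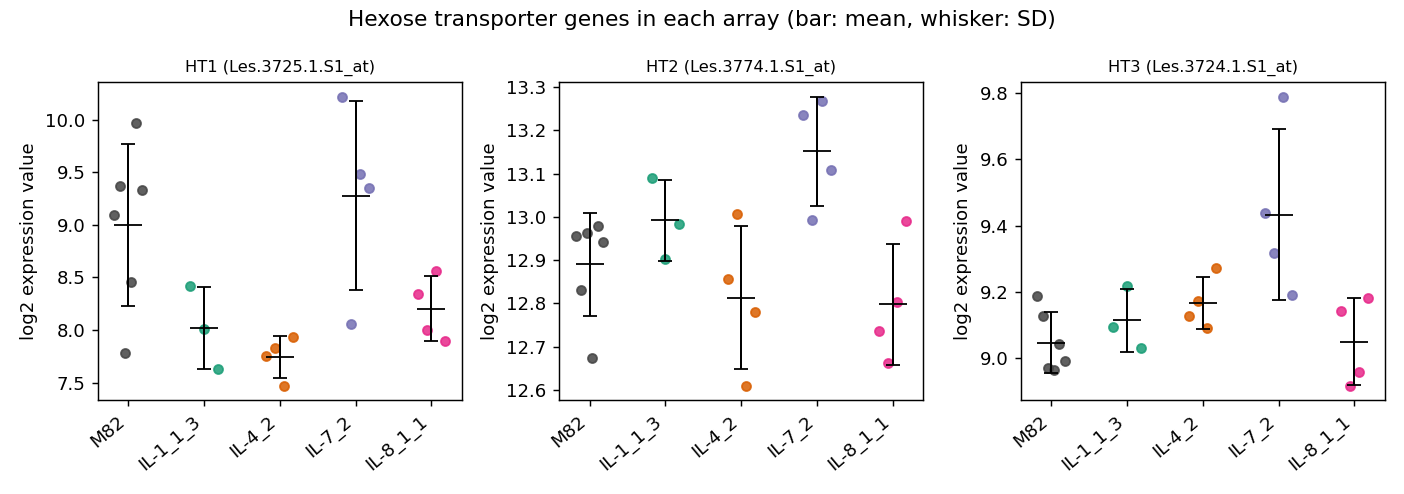
Log2 expression value (vertical axis, own scale for each gene) of HT1, HT2 and HT3 in each array (points), by group (horizontal axis), with mean and SD. IL-7_2 has the highest mean of each gene shown, at 9.28 for HT1, 13.15 for HT2 and 9.43 for HT3, and HT1 spreads from 7.78 to 9.97 within M82. TMT, also on the hexose transporter list, is not shown and had its highest mean in IL-4_2 (13.30, against 13.28 in IL-7_2).

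The transporters HT1 and HT2 passed the test in no line against M82. HT2 in IL-7_2 held 13.24, 12.99, 13.27 and 13.11, all above the highest M82 array at 12.98, the lowest by a small margin. Every IL-7_2 array lay above every M82 array for 2.55% of all probe sets. HT2 in IL-7_2 differed from M82 by 0.26 ± 0.09 (SE, adjusted p = 0.147, limma). Between lines HT2 was higher in IL-7_2 than in IL-8_1_1 by 0.35 ± 0.10 (SE, adjusted p = 0.0408) and lower in IL-4_2 than in IL-7_2 by a difference of -0.34 ± 0.10 (SE, adjusted p = 0.0484). Each of these calls ended when any single one of 6 arrays was left out. These were IL-7_2 arrays 1, 3 and 4 with IL-8_1_1 arrays 1, 2 and 3 in the former (adjusted p up to 0.148), and the same IL-7_2 arrays with IL-4_2 arrays 1, 3 and 4 in the latter (up to 0.176). In the comparison of IL-4_2 with IL-7_2, 4.92% of all probe sets and 0 of the 3 genes were called.

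HT1 varied widely within groups. Its M82 arrays ran from 7.78 (array 3) over a median of 9.21 to 9.97, and IL-7_2 held 10.22, 8.06, 9.49 and 9.35. IL-4_2 held 7.75, 7.83, 7.47 and 7.94, and stood -1.25 ± 0.38 (SE) from M82 without passing (adjusted p = 0.123, limma). Without M82 array 3 the difference was -1.50 and passed (adjusted p = 0.0238). Without M82 array 3 and IL-7_2 array 2 together, HT1 was also lower than M82 in IL-1_1_3 (-1.23, adjusted p = 0.0116) and in IL-8_1_1 (-1.04, adjusted p = 0.0453). Without IL-7_2 array 2 alone, HT1 in IL-1_1_3 against IL-7_2 went from -1.26 (adjusted p = 0.135) to -1.67 (0.0135), and HT1 in IL-7_2 against IL-8_1_1 went from 1.08 (0.188) to 1.49 (0.0201). HT1 was lower in IL-4_2 than in IL-7_2 by a difference of -1.53 ± 0.41 (SE, adjusted p = 0.0366), a call that ended without any single one of the 4 IL-4_2 arrays, or without IL-7_2 array 1, 3 or 4 (adjusted p up to 0.114). The medians of the 4 hexose transporter genes, TMT among them, were 0.00, -0.02, 0.27 and -0.10 in IL-1_1_3, IL-4_2, IL-7_2 and IL-8_1_1. TMT had means of 13.19, 13.30, 13.28 and 13.15 in the same order, against 13.25 in M82, and was called in no line against M82.

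Deviations of HT3 from its group means gave r = 0.40 with HT2 (n = 21, permutation p = 0.0685; rho = 0.46, permutation p = 0.0379, adjusted 0.126) and r = 0.28 with HT1 (permutation p = 0.22). Among the 3 genes themselves no relation passed: r was -0.02 for Wiv-1 with LIN7 (permutation p = 0.936), 0.19 for Wiv-1 with HT3 (permutation p = 0.41) and -0.28 for LIN7 with HT3 (permutation p = 0.225), each over n = 21.

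Of the 21 sugar genes found by name patterns, Wiv-1 in IL-8_1_1 and HT3 in IL-7_2 were the only ones called against M82, and both rose, 1 of 21 in comparisons where 1.44% and 2.84% of all probe sets were called. The median change of the 21 was 0.02, 0.04, 0.05 and 0.01 in IL-1_1_3, IL-4_2, IL-7_2 and IL-8_1_1, with 12, 12, 13 and 12 genes above 0. Over all 10101 probe sets, 5512, 5791, 6069 and 5191 were above 0, a share close to that of the sugar genes. Sucrose phosphate synthase (SPS), which makes sucrose, stood at 11.26 ± 0.39 (SD, n = 6) in M82 and differed by 0.17 to 0.33. The sucrose transporter SUT4 had 2 probe sets, which differed from M82 by -0.02 to 0.21 and by 0.07 to 0.28. The fructokinase FRK4, which phosphorylates fructose, differed by -0.09 to 0.05 from 14.19. AgpL1, a large subunit of the starch enzyme ADP-glucose pyrophosphorylase, differed by -0.68 to -0.12 from 10.33. None of these passed.

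**Figure D5:**
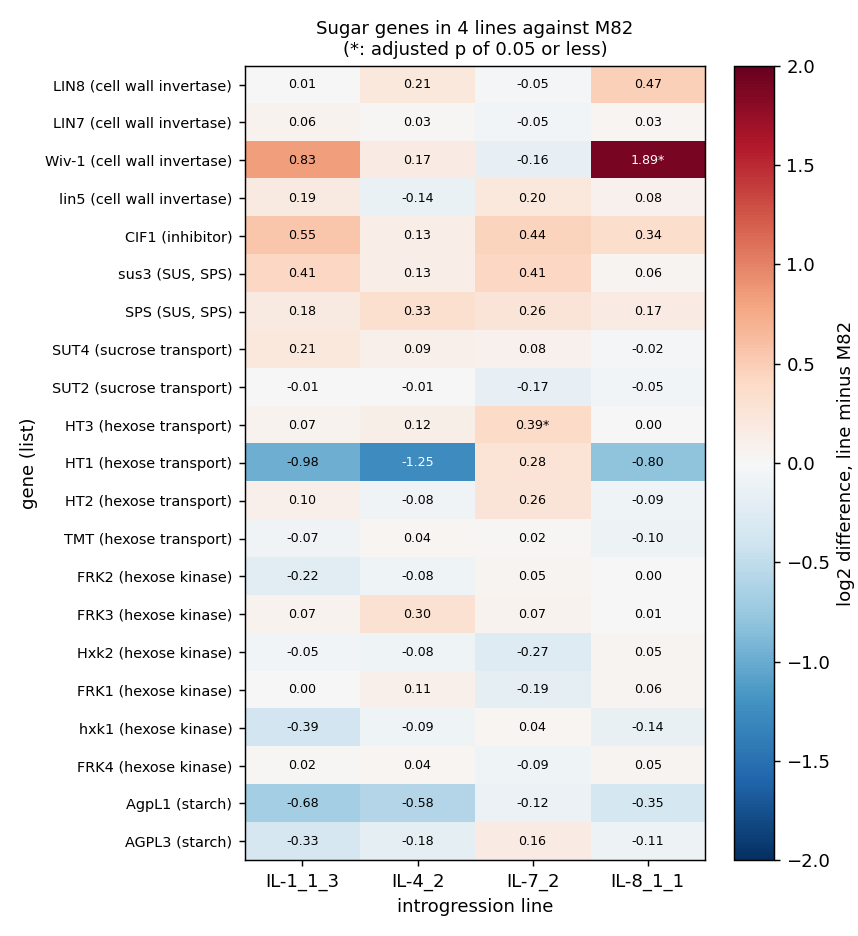
Log2 difference from M82 (colour and printed values) of the sugar genes (rows, grouped by role) in the 4 lines (columns). An asterisk marks the called cells, Wiv-1 in IL-8_1_1 at 1.89 and HT3 in IL-7_2 at 0.39.

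By correlation over the 21 arrays, the named genes most like Wiv-1 were DHAR2, a dehydroascorbate reductase (r = 0.87), CCD1A, a carotenoid cleavage dioxygenase (r = 0.82), and WRKYIId-1, a transcription factor (r = 0.76). Within groups the values were 0.62, 0.25 and 0.29. Their IL-8_1_1 means lay above M82 by 0.75, 0.42 and 1.49, which is a description, since a gene chosen for its likeness to Wiv-1 over all arrays shares its high IL-8_1_1 values by that choice. The genes most like HT3 were PHYA, phytochrome A (r = 0.81, within groups 0.62), PME2.1, a pectin methylesterase (r = 0.72, within groups 0.43), and LOC544102 (r = 0.69, within groups 0.44). Their IL-7_2 means lay above M82 by 0.31, 2.02 and 0.14, likewise a description of genes chosen for their likeness to HT3.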

How the data were processed

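The deposited values are log2 expression values per probe set and array, made by the authors with affy, per the submitters' processing notes; its version, summarisation and normalisation are not stated there. Of 10209 probe sets in all, 108 AFFX controls were left out, 63 RPTR reporters were kept and 10101 were tested. Symbols came from the platform's annotation (909 probe sets, 802 genes), which can be old. One linear model of the 5 groups over 21 arrays (16 residual degrees of freedom) was fitted with limma 3.58.1 in R 4.3.3, with the package for reading files (data.table) at version 1.17.8. P-values were adjusted by Benjamini-Hochberg over all probe sets within each comparison and called at 0.05. The script was tested on simulated data. Relations used Python 3.11.15, numpy 2.4.6 and scipy 1.17.1 (100000 resamples), and figures matplotlib 3.10.9. Resamples shuffled the deviations over all arrays and not within groups. Replicates are the arrays of a group by title; the line label shortens the names IL-1_1_3 and IL-8_1_1. No batch is given. The number of arrays limits the precision.

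The rule for named genes took the 3 genes, the member of each sugar list with the highest mean, every sugar gene called against M82, wound genes called beside a called member, and the 3 genes with a symbol most like each of the 3. HT1, HT2, lin5, LIN8, AGPL3, AI, PsbQ, SUT2, hxk1 and LOXB fall outside it, as do the pollen genes other than PRK2 and Shy. They were named after their values were seen. AI, AGP-S2 and BMY3 were added by hand after the symbols were read, and none was called. The members and lists were chosen with earlier results of these data known. Alternatives were cyclic loess, a filter on dim probe sets (the lowest 0.25 by mean), no RPTR probe sets, other variance models, the line and M82 only, a replicate block and single arrays left out. Leaving out M82 array 3 and IL-7_2 array 2 together, and the axis score as a covariate, were chosen after seeing the data.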

Additional observations from a re-analysis of the deposited data

Results flagged for a closer look

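Wiv-1 differed between lines by -1.72 (IL-4_2 minus IL-8_1_1) and -2.06 (IL-7_2 minus IL-8_1_1), and HT3 by 0.38 (IL-7_2 minus IL-8_1_1), each past the limma test of the difference itself. Single arrays that stood apart from the rest of their group by Dixon's test were found in 7 of 120 checks of a gene in a group, where chance gives about 1 in 20. They were CIF1 in IL-4_2 array 3 (11.01) and in IL-8_1_1 array 3 (11.11), SUT2, a sucrose transporter, in M82 array 1 (10.04), hxk1, a hexokinase, in IL-4_2 array 3 (11.74), WRKYIId-1 in IL-8_1_1 array 3 (9.93), PRK2 in IL-7_2 array 2 (12.94) and PHYA in IL-4_2 array 4 (10.01). None of the 7 was a value of Wiv-1, LIN7 or HT3.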

How the results depend on the processing

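Of the 30 comparisons of Wiv-1, LIN7 and HT3, 5 were called, and none reversed as a call. Over 450 alternative values, 15 uncalled ones changed sign, 16 lost the call and 10 gained it. Wiv-1 in IL-8_1_1 against M82 stayed called under every alternative run (1.77 to 2.15 with single arrays left out). HT3 in IL-7_2 against M82 lost the call with cyclic loess (0.31), with the replicate block (0.37, adjusted p = 0.247) and with the line and M82 only (0.39), and ran from 0.27 to 0.47 with single arrays left out. HT3 in IL-7_2 against IL-8_1_1 lost it with cyclic loess (0.29) and the replicate block (0.38, adjusted p = 0.131), and ran from 0.27 to 0.47. HT2 lost both of its calls between lines with the replicate block (adjusted p = 0.117 in IL-4_2 against IL-7_2 and 0.112 in IL-7_2 against IL-8_1_1). Gained calls were HT3 in IL-1_1_3 against IL-7_2 without M82 array 3 and IL-7_2 array 2 (-0.36) and with the axis score (-0.32), with a range of -0.40 to -0.20 without single arrays; Wiv-1 in IL-1_1_3 against IL-7_2 under the same settings (0.93 and 0.99), with a range of 0.88 to 1.15; Wiv-1 in IL-1_1_3 against IL-8_1_1 with the axis score (-1.06), with a range of -1.32 to -0.93; and Wiv-1 in IL-1_1_3 against M82 with the axis score (0.83, adjusted p = 0.0261). The count of sugar genes called higher in IL-7_2 was 1, and was 0 with cyclic loess, the replicate block, or the line and M82 only, 2 with the axis score, and 0 to 2 without single arrays. Higher in IL-1_1_3 it moved from 0 to 4 with the axis score. Lower in IL-1_1_3 it moved from 0 to 4 without the pair of arrays and 5 with the axis score, and ran from 0 to 1 without single arrays (AGPL3, -0.39, without M82 array 3). Lower in IL-4_2 it moved from 0 to 1 without the pair and 2 with the axis score (0 to 1 without single arrays), and lower in IL-8_1_1 from 0 to 1 without the pair. The axis score was made from the deviations of these same arrays from their group means. As a covariate it could not move a difference, only the spread set beside it. Calls gained with it are therefore no separate evidence. The cause of the other changes was not tested. Replicate numbers did not pair the arrays: same-numbered arrays of different groups had deviations correlated at -0.81 to 0.70, over 0.1 in 13 of 36 pairs, and 1 of 21 arrays correlated best with its own number.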
